A study of Saccharomyces cerevisiae with 2 samples.

Results

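The genes described here encode the DNA replication machinery of budding yeast and its ribonucleotide reductase (RNR). They are 49 genes taken by name out of 6002 protein-coding genes on 16 nuclear chromosomes, and all 49 were matched by symbol in the RefSeq annotation of assembly R64 (sacCer3). The rule uses no measured value, but members, lists and limits were chosen with earlier results of these data known. DNase-seq marks stretches of chromatin that DNase I cuts readily, and the deposited lists report such stretches as hotspots. For each gene, the bases covered by hotspots were counted in the 500 bp upstream of the coding start, here called the promoter, and in the coding body. The tested strain carried G170D, a temperature-sensitive allele of the chaperone Hsp90, and was set against a wild-type (WT) strain, both in the W303 laboratory background. Both cultures were grown in YPD at 30 °C and moved to 37 °C for 15 min before nuclei were isolated, so the WT cells had been heated as well. The labels do not say which Hsp90 gene copies either strain keeps, whether the cultures were synchronised, or how many cultures stand behind a library. Each strain gave 1 library and 1 hotspot list, so no difference between strains has a replicate check, no test between strains was possible, and the depth behind the lists is unknown. Libraries from before the shift were not analysed here.

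Eukaryotic replication starts at origins bound by the origin recognition complex (ORC), where Cdc6 and Cdt1 load the ring-shaped MCM helicase in G1 phase. The loaded helicase becomes active in S phase when Cdc45 and the GINS complex join it, and DNA polymerases, the sliding clamp and its loader then copy both strands. RNR makes the deoxyribonucleotides for this synthesis. In budding yeast many of these genes are transcribed in a burst at the G1 to S transition under the factors MBF and SBF. RNR2, RNR3 and RNR4 are targets of the repressor Rfx1, whose hold is relieved on DNA damage.

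Replication promoters were mostly accessible in both strains, and where they differed they were usually less covered in G170D: 28 of the 49 had fewer covered bases in G170D, 7 had more and 14 the same number. All coding genes leaned the same way, with 44.2% having fewer covered bases in G170D and 20.8% more, against 57.1% and 14.3% of the members. Of the 49 promoters, 35 (71.4%) had a hotspot in both strains, 1 in G170D alone, 8 in WT alone and 5 in neither. Over all 6002 coding genes, 72.4% of promoters had a hotspot in both strains, 3.65% in G170D alone, 9.58% in WT alone and 14.4% in neither. The 8 promoters in WT alone are 16.3% of the members and belonged to ORC6, PSF1, SLD2, SLD3, RFC3, RFC5, CTF4 and RNR1. MCM3 was the 1 in G170D alone. A promoter was called higher or lower when its covered length differed by at least 100 bp. In all, 15 promoters (30.6%) were lower in G170D, against 19.6% of all coding genes, and 4 (8.16%) were higher, against 9.61%. The median covered length was 263 bp in G170D and 321 bp in WT, against 286 and 317 bp over all coding genes. The median of the paired differences, G170D minus WT, was -19 bp for the members and 0 bp for all coding genes. The member median was also 0 bp with a 250 bp window and with the window cut at the neighbouring coding gene. It was likewise 0 bp among hotspots scoring above the median of their own list and with lists of equal length. The G170D list was also the shorter one, with 5988 hotspots over 3326855 bp, against 7050 hotspots over 3831421 bp in WT. How far the length of the lists sets these counts was not tested, but with both lists cut to the same number of hotspots by score the promoters in WT alone numbered 4 (8.16%, against 7.33% of all genes) and those lower in G170D 12 (24.5%, against 17.9%). Among hotspots scoring above the median of their own list, 7 promoters were lower in G170D (14.3%, against 17.6% of all genes). With a 250 bp window 7 members were lower in G170D, and with a limit of 200 bp likewise 7 (14.3% each, against 10.6% and 9.63% of all genes). The share of lower members thus stood above that of all genes in these settings, except among the higher-scoring hotspots, where it stood under it.

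**Figure D1:**
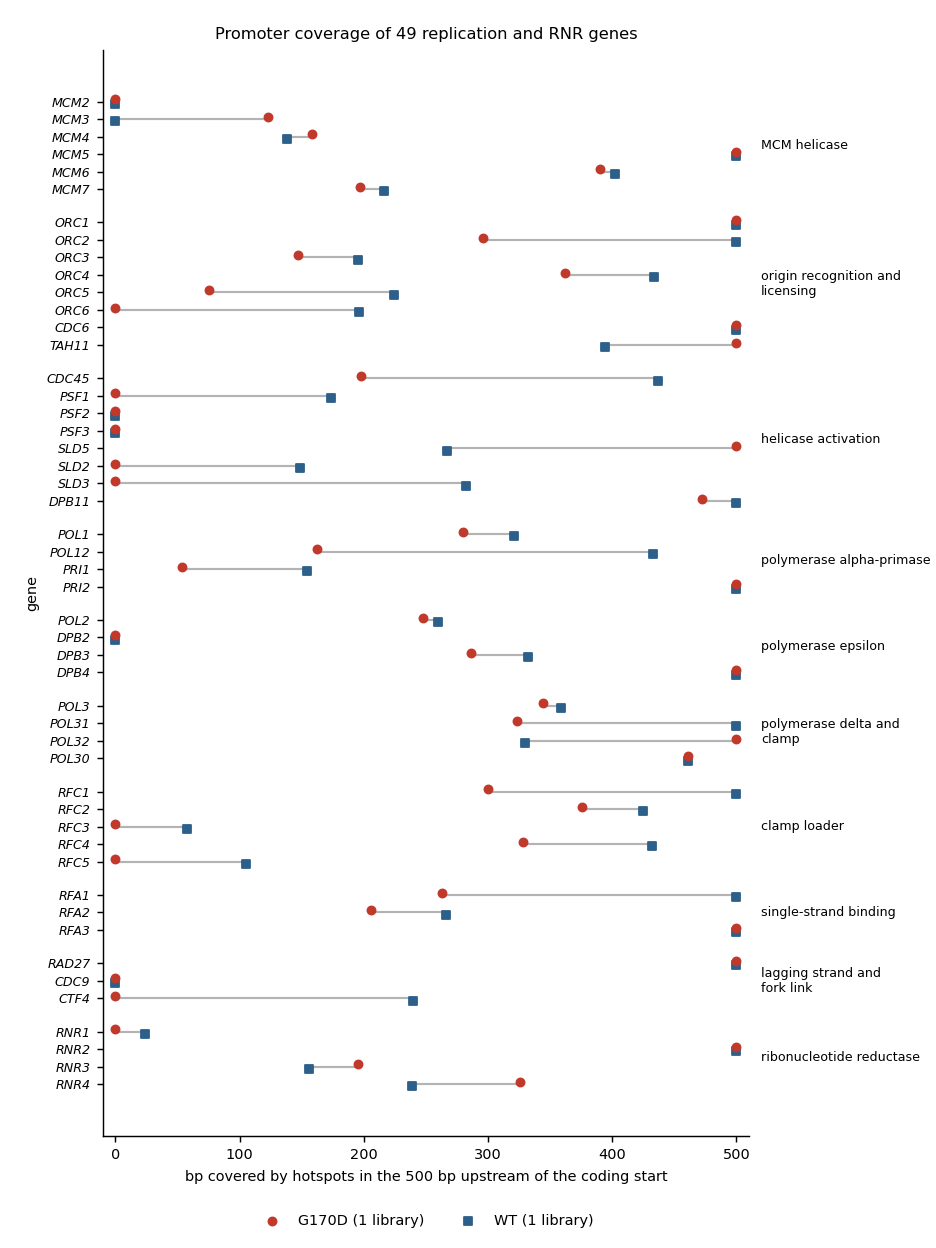
Bases of the 500 bp promoter covered by hotspots (x axis) for each of the 49 genes (y axis, grouped by role), with a red circle for the 1 G170D library and a blue square for the 1 WT library. In 28 genes the G170D circle lies left of the WT square, and 4 genes (MCM3, TAH11, SLD5 and POL32) differ by at least 100 bp the other way.

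The MCM helicase genes, MCM2 to MCM7, encode the 6 subunits of the ring that unwinds DNA. Their promoters differed little, apart from MCM3. The MCM3 promoter (coding body on chromosome V, 86937 to 89852, plus strand) had 123 bp covered in G170D and 0 bp in WT. A 261 bp hotspot at 86814 to 87074 spanned the MCM3 start in G170D, and a second of 681 bp at 87424 to 88104 lay inside the coding body. Neither met a WT hotspot, and WT listed none in the promoter or the body, so MCM3 was covered over 28.1% of its body in G170D and 0% in WT. With only hotspots scoring above the median of their list, the MCM3 promoter difference was 0 bp and the body difference 23.4 percentage points. MCM5 (chromosome XII, 691555 to 693882, plus strand) showed the reverse in its body, with equal promoter coverage. Its promoter was covered over 500 bp in both strains, while 2.62% of the body was covered in G170D and 24.6% in WT. MCM6 had 390 bp of promoter covered in G170D and 402 bp in WT, with 6.12% and 21.9% of the body. MCM4 (158 and 138 bp) and MCM7 (197 and 216 bp) had similar promoters in G170D and WT. MCM2 (chromosome II, 174920 to 177526, minus strand) had no hotspot in promoter or body in either list.

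ORC binds origins through most of the cell cycle, and Cdc6 and Cdt1, the product of TAH11, load MCM there. Of these 8 promoters, 3 were lower in G170D (ORC2, ORC5 and ORC6), or 37.5% against 19.6% of all coding genes. TAH11 was the 1 that was higher (12.5%, against 9.61%). ORC2 (chromosome II, 360652 to 362514, minus strand), an ORC subunit gene with 2272 bp to the next coding gene upstream, had 296 bp covered in G170D and 500 bp in WT. Its WT hotspot reached 762 bp upstream of the first coding base, and the G170D hotspot 296 bp. ORC6 (chromosome VIII, 344321 to 345628, minus strand) had 0 bp covered in G170D and 196 bp in WT. That WT hotspot stood at percentile 8.92 of the WT scores, the authors' own values, which are used here only to rank hotspots within a list. ORC5 (chromosome XIV, 155100 to 156539, plus strand) had 75 bp covered in G170D and 224 bp in WT, and 85 bp of the WT value lay in the end of its neighbour POL2. With only hotspots above the median score of their list the ORC5 difference turned to 75 bp, higher in G170D.

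ORC3 and TAH11 had the 2 largest body differences of the 49 genes, in opposite directions. ORC3 (chromosome XII, 141073 to 142923, plus strand) was covered over 0% of its body in G170D and 52.4% in WT, where hotspots of 304 and 755 bp met no G170D hotspot. Its promoter had 147 bp in G170D, against 195 bp in WT. TAH11 (chromosome X, 522048 to 523862, plus strand) was covered over 68.5% of its body in G170D and 16.6% in WT. The G170D hotspot of 1729 bp there ran from 694 bp upstream to 1034 bp downstream of the first coding base, whereas the 497 bp WT hotspot ended 107 bp short of it. The TAH11 promoter was covered over 500 bp in G170D and 394 bp in WT, and it is shared with the divergent gene SSC1, which encodes a mitochondrial Hsp70. CDC6 (chromosome X, 69338 to 70879, plus strand) had a fully covered promoter in both strains and 27.2% of its body covered in G170D, against 8.30% in WT, below the limit of 20 percentage points used for a call. ORC1 had 500 bp of promoter covered in both strains, with 4.99% of its body in G170D and 22.2% in WT. ORC4 was covered over 46.7% of its body in G170D and 67.2% in WT.

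Genes for helicase activation had a promoter hotspot in both strains in 3 of 8 cases (37.5%, against 72.4% of all coding genes). Of the others, 3 had one in WT alone (37.5%, against 9.58%) and 2 in neither (25%, against 14.4%). In this group 4 promoters were lower in G170D (50%, against 19.6%). CDC45 and the GINS genes PSF1, PSF2, PSF3 and SLD5 encode parts of the active helicase, and SLD2, SLD3 and DPB11 encode factors that assemble it. CDC45 (chromosome XII, 343989 to 345941, minus strand) had 198 bp of promoter covered in G170D and 437 bp in WT. With only hotspots above the median score of their list the CDC45 promoter difference was 0 bp. SLD3 (chromosome VII, 295932 to 297938, plus strand) had 0 bp in G170D and 282 bp in WT, the largest promoter difference among the 49 genes. With a 1000 bp window the SLD3 difference was -62 bp, and with only hotspots above the median score of their list it was 0 bp. SLD2 (chromosome XI, 234426 to 235787, plus strand) had 0 bp in G170D and 149 bp in WT, and its body 0% and 23.9%. With a 250 bp window, or with only hotspots above the median score of their list, the SLD2 promoter difference was likewise 0 bp. Sld2 and Sld3 are the phosphorylation targets through which the cyclin-dependent kinase starts replication in budding yeast. The SLD2 and SLD3 promoters were among the 3 of this group with a hotspot in WT alone. PSF1 (chromosome IV, 473157 to 473783, plus strand) had 0 bp in G170D and 174 bp in WT, with 0% and 35.4% of the body. With only hotspots above the median score of their list the PSF1 differences were 0 in promoter and body. The PSF1 hotspots and the SLD2 and SLD3 promoter hotspots of WT met no G170D hotspot anywhere. SLD5 (chromosome IV, 1431012 to 1431896, plus strand) went the other way at its promoter, with 500 bp covered in G170D and 267 bp in WT. The G170D hotspot was 2381 bp wide and reached 2192 bp upstream, across the divergent neighbour PAC11, whereas the WT hotspot was 326 bp wide. Of the SLD5 promoter window only 222 bp is intergenic, and that stretch was fully covered in both strains. A 370 bp WT hotspot inside SLD5 met no G170D hotspot, and 21.4% of the body was covered in G170D and 48.5% in WT. DPB11 had 472 bp of promoter covered in G170D and 500 bp in WT, with 59.2% and 72.6% of the body. PSF2 and PSF3 had no promoter hotspot in either list, and PSF2 had none in its body.

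DNA polymerase alpha with primase lays down the primers, polymerase epsilon copies mainly the leading strand, and polymerase delta mainly the lagging strand. All 4 polymerase alpha-primase promoters had a hotspot in both strains, and 2 of them were lower in G170D (50%, against 19.6% of all coding genes). POL12 (chromosome II, 151493 to 153610, minus strand), the gene of the B subunit, had 162 bp covered in G170D and 433 bp in WT. Most of that difference lay in the neighbouring gene STU1, because the intergenic part held 137 bp in G170D and 170 bp in WT. PRI1, the gene of the catalytic primase subunit, had 54 bp in G170D and 154 bp in WT. POL1 (280 and 321 bp in G170D and WT) and PRI2 (500 bp in both) were not called. No polymerase epsilon promoter was called: POL2 had 248 bp in G170D and 260 bp in WT, DPB3 286 and 332 bp, DPB4 500 bp in both, and DPB2 no hotspot in promoter or body in either list.

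Polymerase delta genes were split. POL31 (chromosome X, 449202 to 450665, plus strand) had 323 bp of promoter covered in G170D and 500 bp in WT. POL32 (chromosome X, 516461 to 517513, minus strand) had 500 bp in G170D, where a single 1544 bp hotspot joined the positions of 2 WT hotspots, and 330 bp in WT. POL3, the gene of the catalytic subunit, had 344 bp in G170D and 359 bp in WT, with 5.74% of the body covered in G170D and 24.9% in WT. POL30 (chromosome II, 424990 to 425766, minus strand) encodes PCNA, the sliding clamp. Its promoter was the same in both strains, with 461 bp covered by hotspots that began at the same base. Its body was covered over 22.4% in G170D and 66.4% in WT, or 174 bp in G170D and 516 bp in WT. The hotspot over the start ran 129 bp past the first coding base in G170D and 391 bp in WT, and a hotspot at the end of the gene covered 44 bp of it in G170D and 124 bp in WT.

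The clamp loader genes RFC1 to RFC5 were the 1 role group in which every promoter had less covered length in G170D. The difference was at least 100 bp in 3 of the 5 (60%, against 19.6% of all coding genes). RFC1 (chromosome XV, 749301 to 751886, plus strand) had 300 bp covered in G170D and 500 bp in WT. In place of the 1005 bp WT hotspot that spanned the RFC1 start, G170D had hotspots of 300 and 245 bp with the first coding base between them. RFC4 had 328 bp in G170D and 432 bp in WT, of which the 259 bp intergenic part was fully covered in both. RFC5 (chromosome II, 423765 to 424829, plus strand) had 0 bp in G170D and 105 bp in WT, in a WT hotspot at score percentile 8.34. RFC3 had 0 bp in G170D and 58 bp in WT, again at a low score percentile of 9.36. RFC2 had 376 bp in G170D and 425 bp in WT. RFC5 and POL30 are convergent neighbours whose ends share a 335 bp WT hotspot, so their body values are not separate observations.

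Replication protein A, encoded by RFA1, RFA2 and RFA3, coats single-stranded DNA. RFA1 (chromosome I, 156754 to 158619, minus strand) had 263 bp of promoter covered in G170D and 500 bp in WT. The WT hotspot reached 10 bp past the first coding base, whereas the G170D hotspot stopped 238 bp upstream of it and ranked low, at score percentile 3.36. RFA2 had 206 bp in G170D and 266 bp in WT. RFA3, a gene of 369 bp, was fully covered in promoter and body in both strains, by hotspots that ran on past its end. Among the lagging-strand and fork genes, RAD27, which encodes the flap endonuclease, had 500 bp in both strains, and CDC9, the DNA ligase gene, had no promoter hotspot in either. CTF4 (chromosome XVI, 799234 to 802017, plus strand), whose product links the helicase to polymerase alpha, had 0 bp of promoter covered in G170D and 240 bp in WT. The 799 bp WT hotspot over the CTF4 start was represented in G170D by a 218 bp hotspot that began 331 bp inside the body, and the 2 hotspots further down the gene were present in both strains.

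**Figure D2:**
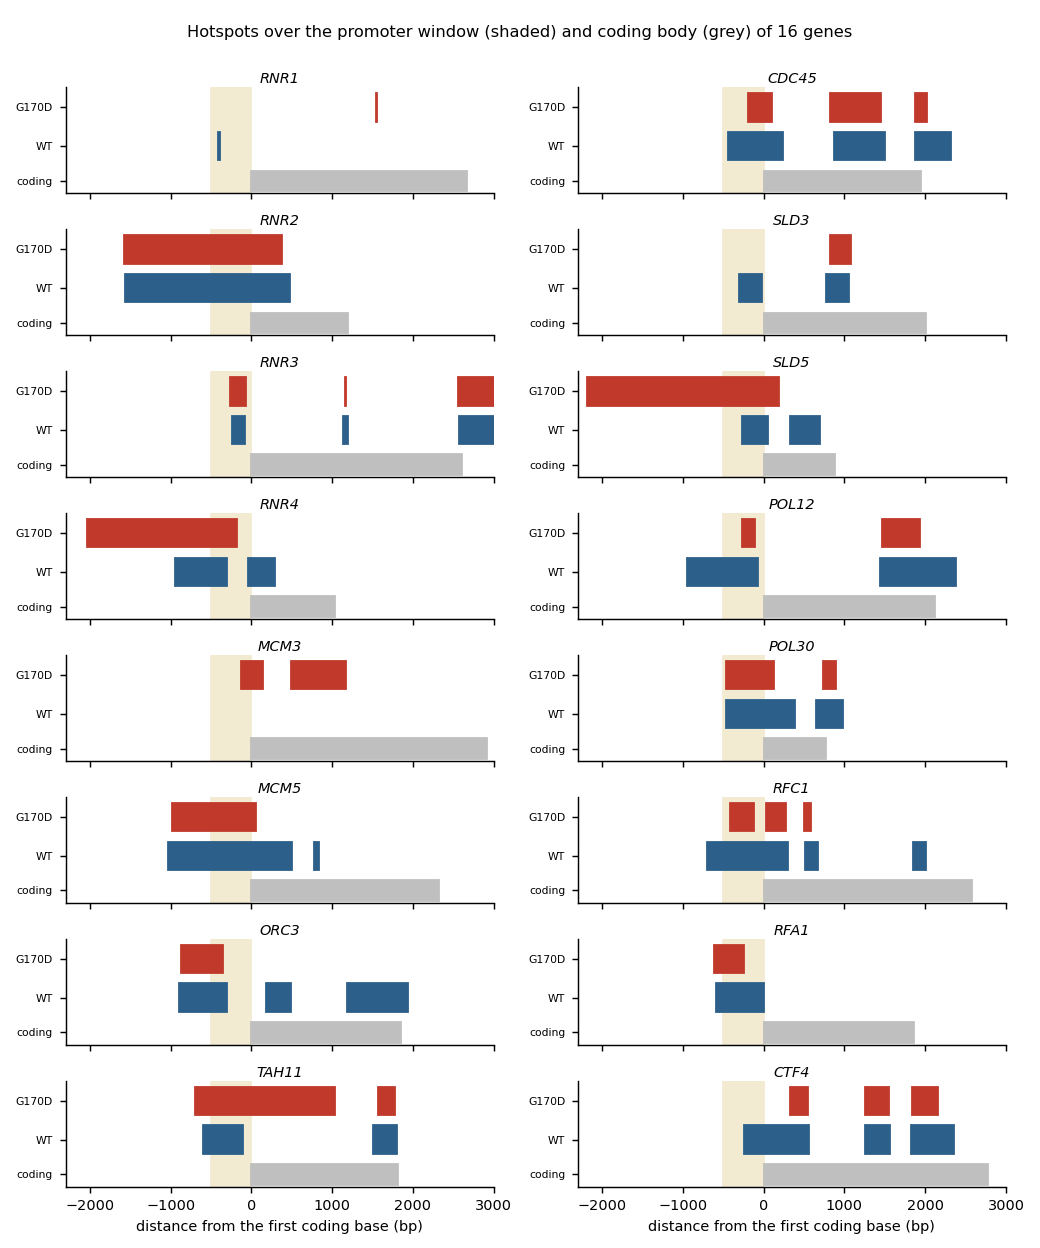
Hotspots of G170D (red) and WT (blue) that touch the 500 bp promoter window (shaded) or the coding body (grey bar) of 16 genes, by distance from the first coding base (x axis, bp, transcription to the right). TAH11, SLD5 and RNR4 have wide G170D hotspots, CTF4 and SLD3 lack the WT promoter hotspot in G170D, and MCM5 and POL30 hotspots end nearer the start in G170D.

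The 4 RNR promoters included none called higher or lower. RNR1 and RNR3 encode alternative large subunits, RNR1 being the main one and RNR3 the damage-induced one, and RNR2 and RNR4 encode the small subunit. RNR2 (chromosome X, 392404 to 393603, plus strand) had among the highest-scoring hotspots of each list, at percentile 99.5 in G170D and 96.2 in WT. They were 1952 bp wide in G170D and 2051 bp in WT and covered the whole promoter, and 31.1% of the body in G170D and 40.1% in WT. RNR3 (chromosome IX, 238099 to 240708, minus strand) had a narrow promoter hotspot of 195 bp in G170D and 156 bp in WT, ending 67 and 82 bp upstream of the first coding base. Its body was almost bare, with 2.61% covered in G170D and 3.98% in WT. RNR1 (chromosome V, 298950 to 301616, plus strand) had almost no hotspot at all. Its promoter held 0 bp in G170D and 24 bp in WT, where the 1 hotspot stood at score percentile 6.26, and its body 0.450% in G170D and 0% in WT.

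At RNR4 (chromosome VII, 855264 to 856301, minus strand) the covered lengths differed by less than 100 bp, but lay at other positions. The promoter was covered over 326 bp in G170D and 239 bp in WT. In G170D a single 1862 bp hotspot lay from 2036 to 175 bp upstream of the first coding base. In WT a 638 bp hotspot lay from 942 to 305 bp upstream, and a second of 334 bp ran from 43 bp upstream to 290 bp past the first coding base. That second hotspot met no G170D hotspot, so the body was covered over 0% in G170D and 28.0% in WT, and the RNR4 start itself was covered in WT alone. RNR1 and RNR3 are paralogs, and no source used here says where reads matching both were placed.

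Coding bodies of the 49 genes were less covered in G170D more often than more covered, as were those of all coding genes. The covered share was lower in G170D for 37 genes (75.5%), higher for 7 (14.3%) and equal for 5 (10.2%), against 55.7%, 23.2% and 21.1% of all coding genes. A difference of at least 20 percentage points was called: 9 bodies (18.4%) were lower in G170D, against 15.3% of all coding genes, and 2 (4.08%) were higher, against 9.43%. The 9 were MCM5, ORC3, ORC4, ORC6, PSF1, SLD5, SLD2, POL30 and RNR4, and the 2 were MCM3 and TAH11. The share of bodies called lower was thus close to that over all genes. The median covered share was 12.8% in G170D and 23.9% in WT, against 13.6% and 19.7% over all coding genes, and the median difference was -7.92 points for the members and -1.41 points for all coding genes. Summed over the 49 genes, 15288 bp of coding sequence were covered in G170D and 21935 bp in WT. Bodies with no covered base numbered 11 in G170D (22.4%) and 6 in WT (12.2%), against 25.4% and 19.8% of all coding genes.

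**Figure D3:**
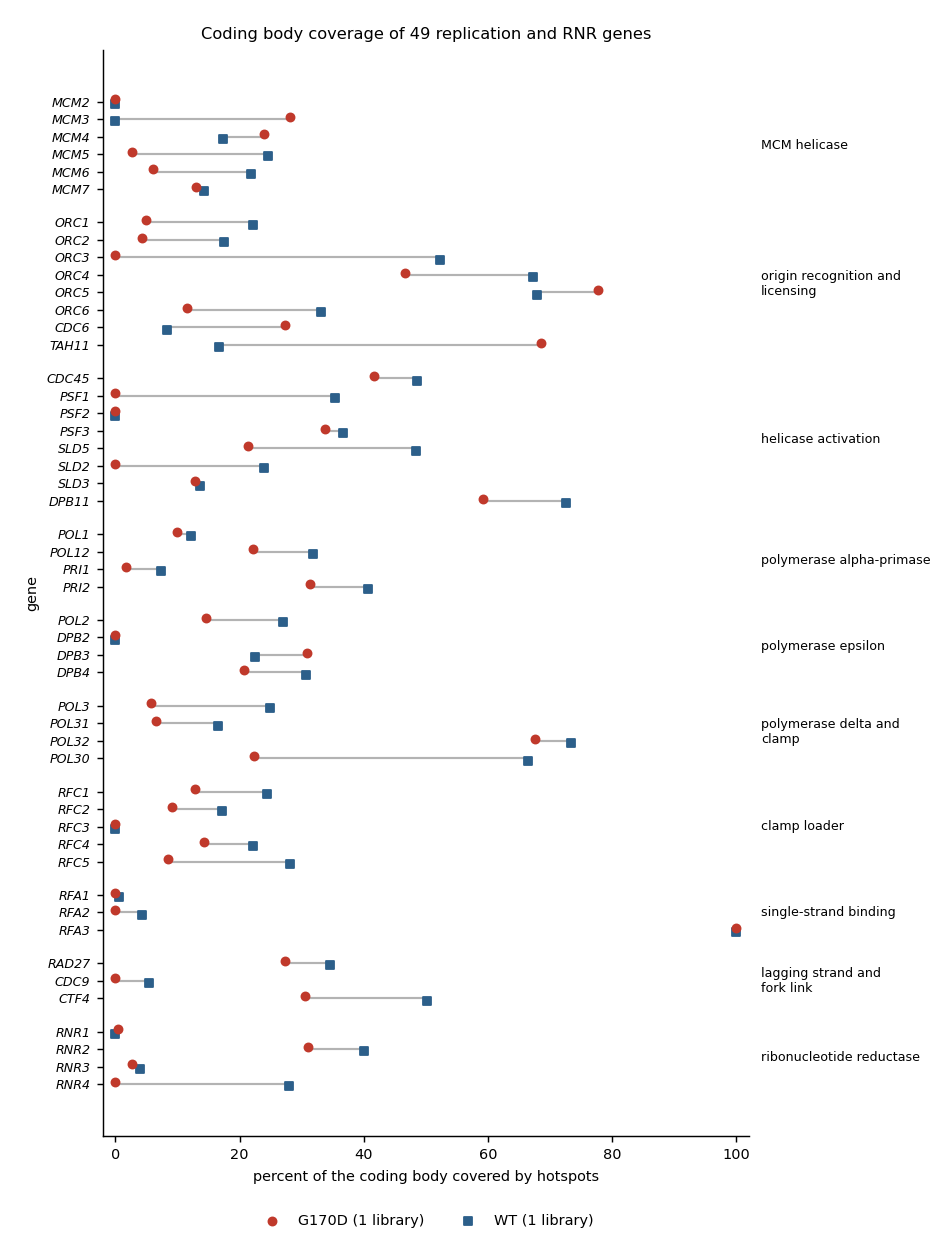
Percent of the coding body covered by hotspots (x axis) for each of the 49 genes (y axis, grouped by role), with a red circle for the 1 G170D library and a blue square for the 1 WT library. TAH11 and MCM3 lie furthest right of their WT values, ORC3 and POL30 furthest left, and RFA3 is at 100% in both strains.

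Part of the lower body coverage lay just inside the genes. At 200 bp downstream of the first coding base, 9 of the 49 genes (18.4%) were covered in G170D and 16 (32.7%) in WT, against 30.1% and 33.5% of all coding genes. At 300 bp downstream the shares were 16.3% in G170D and 30.6% in WT, against 27.1% and 30.5% of all genes. Over a short stretch further in, the order turned: at 500 bp downstream 24.5% of members were covered in G170D and 20.4% in WT. At 525 bp the shares were 26.5% and 20.4%, against 23.7% and 25.8% of all genes. At 800 bp WT was higher again, with 8.16% of members covered in G170D and 18.4% in WT, against 22.1% and 24.3% of all genes. In genes over 1000 bp, the median share covered beyond the first 500 bp was 4.19% in G170D and 13.3% in WT for the members. Over all such coding genes it was 4.16% and 10.2%. The peak of coverage was upstream, at 63.3% of members at 175 bp upstream in G170D and 73.5% at 200 bp upstream in WT. Over all genes it was 60.0% in G170D and 65.5% in WT, both at 150 bp upstream. Further upstream, at 400 bp, 34.7% of members were covered in G170D and 53.1% in WT, against 48.0% and 52.4% of all genes. At 600 bp upstream 38.8% of members were covered in each strain, against 41.0% in G170D and 44.2% in WT over all genes. At 975 bp upstream the member shares were 24.5% in G170D and 18.4% in WT, against 32.9% and 33.9%. The offsets named here are examples out of the 25 bp steps of the profile.

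**Figure D4:**
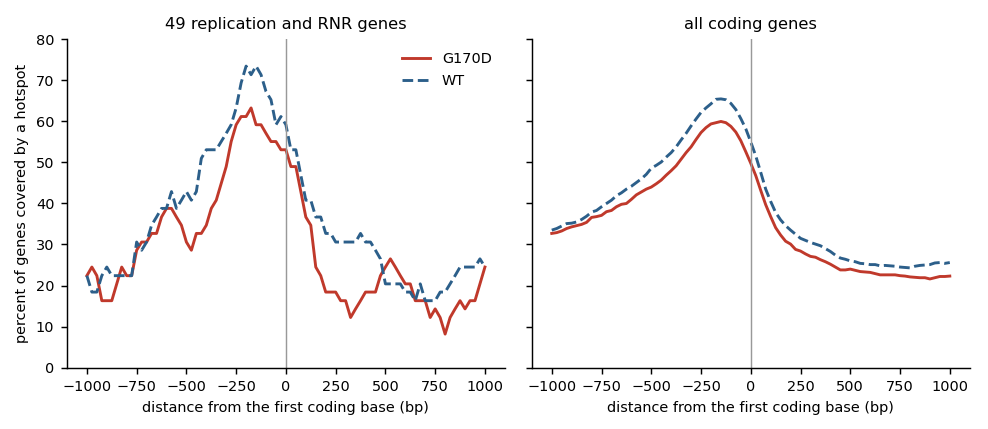
Percent of genes covered by a hotspot (y axis) at each distance from the first coding base (x axis, bp, in steps of 25 bp), for the 49 replication and RNR genes on the left and all 6002 coding genes on the right, with G170D as a solid red and WT as a dashed blue line. Among the 49 genes the G170D line lies well under the WT line near 400 bp upstream (34.7% in G170D and 53.1% in WT) and at 200 bp downstream (18.4% and 32.7%).

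The edges of the hotspots over the start describe the same data hotspot by hotspot. This measure was chosen after the values above were seen and is no separate support for them. The first coding base was covered in 26 members in G170D and 29 in WT, and 24 had it covered in both. In these 24 genes the hotspot over the start reached a median of 125 bp past the first coding base in G170D and 184 bp in WT. It ended nearer the start in G170D in 18 of the 24 genes (75.0%), against 65.4% of the 2604 coding genes with the first coding base covered in both. It was at least 100 bp shorter on that side in 8 of the 24 genes (33.3%), against 22.6% over those 2604 genes, and at least 100 bp longer in 3 (12.5%), against 14.9%. The 8 genes were MCM5, ORC1, MCM6, POL3, POL30, RFA3, CDC45 and RNR2. At MCM5 the hotspot reached 60 bp past the first coding base in G170D and 503 bp in WT, with upstream edges 982 and 1033 bp away. At ORC1 it reached 42 bp in G170D and 450 bp in WT, and at POL3 130 and 465 bp with upstream edges at 344 and 359 bp. At these genes and MCM6 the upstream edge moved by less than 100 bp while the edge inside the gene lay over 300 bp nearer the start. ORC5 was the largest exception, with 898 bp in G170D and 81 bp in WT.

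Hotspots found in 1 strain alone were about as frequent at the 49 genes as in the whole lists. The genes' promoters and bodies touched 78 hotspots in G170D, 5 of which (6.41%) met no WT hotspot, against 9.77% of the whole G170D list. They touched 98 in WT, 24 of which (24.5%) met no G170D hotspot, against 26.6% of the whole WT list. Of the 5 in G170D, 2 are the pair at MCM3, and the others touched POL2, the end of POL3, and RNR1. Promoter hotspots in WT alone were low in their list: over the 8 such promoters the top hotspot had a median score percentile of 20.7 (range 6.26 to 48.7) and a median width of 212 bp. Where both strains had one (35 promoters), the top hotspot had a median of percentile 61.9 and 513 bp in G170D, and of percentile 72.4 and 643 bp in WT. The orientation of the upstream neighbour differed between members and all genes. It was divergent for 32 of the 49 (65.3%), against 52.0% of all coding genes. Promoters lower in G170D numbered 8 of 32 with a divergent neighbour (25%, against 19.3% of all such genes) and 7 of 17 with a tandem neighbour (41.2%, against 20.0%). With the window cut at the neighbouring coding gene, ORC5 and POL12 among the 7 and RFC4 among the 8 were no longer lower.

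The other genes of the pathway were counted in 3 lists, and their calls are to be read against the same shares of all coding genes, 9.61% higher and 19.6% lower. Of 11 genes for deoxyribonucleotide supply and its regulators, 11 had a promoter hotspot in both strains, 4 were higher in G170D (36.4%) and 1 (CDC21, the thymidylate synthase gene) was lower (9.09%). Their median promoter coverage was 500 bp in G170D and 364 bp in WT, against 286 and 317 bp over all coding genes. The median of their paired differences was only 4 bp, with 6 promoters more covered in G170D, 1 less covered and 4 equal. The 4 higher ones were RFX1, SML1, DIF1 and WTM2, WTM2 being a paralog of WTM1, whose product holds the small subunit in the nucleus. At SML1 (chromosome XIII, 159383 to 159697, plus strand), which encodes the RNR inhibitor, 500 bp of promoter and 100% of the body were covered in G170D, against 364 bp and 0% in WT. A 2004 bp G170D hotspot there also covered HUG1, another RNR inhibitor gene and the upstream neighbour of SML1, whose promoter and body were fully covered in both strains. At DIF1 (chromosome XII, 1011622 to 1012023, minus strand), whose product brings the small subunit into the nucleus, the promoter was covered over 500 bp in G170D and 263 bp in WT, and a 4345 bp G170D hotspot joined the positions of 2 WT hotspots. WTM2 (chromosome XV, 768409 to 769812, plus strand) had 409 bp in G170D and 52 bp in WT, with 100% and 44.2% of its body. RFX1, the repressor gene, had 500 bp in G170D and 393 bp in WT, with 71.7% and 38.5% of its body.

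Of 20 other fork and checkpoint genes, 12 promoters had a hotspot in both strains, 1 in G170D alone and 3 in WT alone, with 3 higher (15%) and 5 lower (25%) in G170D, near the shares over all genes. The checkpoint kinase genes MEC1 and RAD53 stood at opposite ends, while DUN1, a kinase gene of the first list, had 62 bp in G170D and 58 bp in WT. MEC1 (chromosome II, 505668 to 512774, plus strand) had 493 bp covered in G170D and 0 bp in WT, and RAD53 (chromosome XVI, 261727 to 264192, minus strand) had 19 bp in G170D and 500 bp in WT. CSM3, CTF18 and DCC1, which act in fork pausing and sister cohesion, had 0 bp in G170D and 280, 276 and 262 bp in WT. The WT hotspots at CTF18 and DCC1 ranked low, at percentiles 3.76 and 1.45, and only 36 bp of the CTF18 value were intergenic. CTF8, which acts with CTF18 and DCC1, had 317 bp in G170D and 388 bp in WT, and TOF1 and MRC1, which act with CSM3, had none in either. Of 7 regulators of the G1 to S transition, 4 promoters were lower in G170D (57.1%) and 2 higher (28.6%). MBF is made of Mbp1 and Swi6, and SBF of Swi4 and Swi6. SWI6 and MBP1 had 0 bp in G170D and 312 and 287 bp in WT, and SWI4 had 219 bp in G170D and 500 bp in WT. Only 81 bp of the SWI6 value were intergenic, under the limit for a call. The MBP1 hotspot of WT was among the lowest scores of that list, at percentile 0.270. NRM1, which encodes an MBF corepressor, had 489 bp in G170D and 0 bp in WT, and YOX1, a homeodomain repressor gene, had 486 bp in G170D and 221 bp in WT. These lists are small, hold neighbours that share hotspots and were compared with no test.

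**Figure D5:**
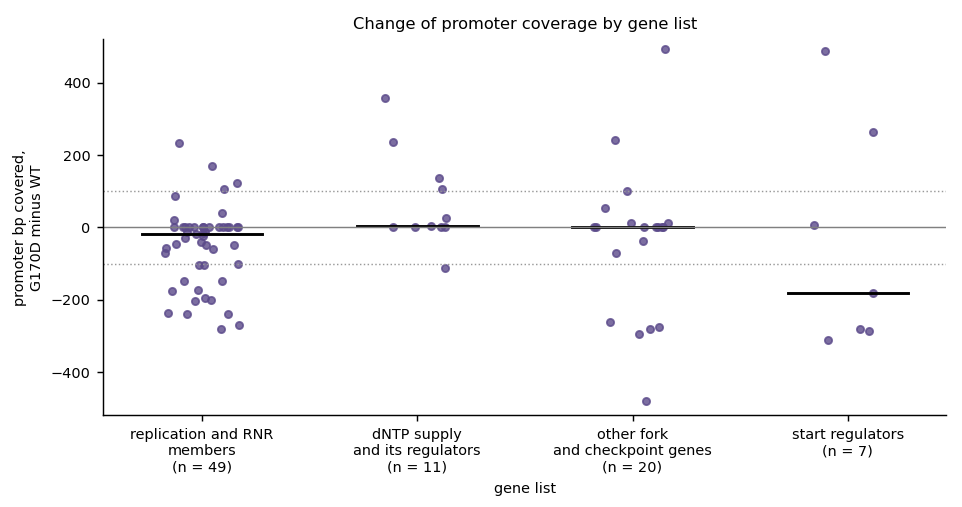
Covered promoter length in G170D minus WT (y axis, bp) for each gene (points, spread sideways at random) of the 49 members and of 3 other lists of pathway genes (x axis), with the list median as a black line and dotted lines at the 100 bp limits of a call. The member points reach from -282 to 233 bp, and the medians are -19 bp for the members and 4, 0 and -182 bp for the other lists.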

How the data were processed

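DNase-seq libraries were used, 1 of G170D and 1 of WT, grouped by their source labels. Per the submitters' processing notes, FastQC 0.10.1, Bowtie 1.0.0 and build sacCer3 were named, with no settings. No source used here names the hotspot caller or read filters. The deposited lists give chromosome, start, end and a score per hotspot, called per sample, and the unit of the authors' score is not stated. Scores ranked hotspots within a list and were not compared between lists.

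Covered bases were counted against the RefSeq R64 gene table, with strand from the W or C of the systematic name and coordinates counting from 1. The table holds gene bodies without untranslated regions. A promoter had a hotspot from 1 covered bp. Calls used 100 bp and 20 percentage points, and the same counts over 6002 coding genes served as background. With 1 library per strain no test was made. Members, lists and limits were chosen with earlier results of these data known. Named genes followed a rule: promoters in 1 strain or in neither, the 10 largest promoter and the 8 largest body differences, all RNR genes, and a first gene of any role group still unnamed. ORC1, ORC4, MCM6, POL3 and further members and pathway genes were added after their values were seen. DDC2 was matched by synonym. Alternatives covered window, clipping at neighbours, score, list length, merging and limits. A planned search for 6 motifs was not run, since no sequence was used here, and no sequence is printed. Coverage counts were right in 1003 of 1003 simulated windows. Computation used Python 3.11.15, numpy 2.4.6, pandas 2.3.3, scipy 1.17.1 and matplotlib 3.10.9.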

Additional observations from a re-analysis of the deposited data

How the results depend on the processing

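No paired analysis was possible because each strain has 1 library. Of 70 recomputed counts and medians, 48 stayed within 1.5 times the count or inside the order-statistic interval of the median, and 22 did not. A 250 bp window gave 8 members with no promoter hotspot (16.3%, against 20.3% of all genes). It gave 2 promoters higher in G170D (4.08%, against 5.40%) and 7 lower (14.3%, against 10.6%). A 1000 bp window gave 2 in G170D alone (4.08%, against 3.17% of all genes), 4 in WT alone (8.16%, against 7.6%) and 2 with none (4.08%, against 9.68%). With that window 7 were higher (14.3%, against 15.5%) and 19 lower (38.8%, against 30.3%). The median difference was then -60 bp for the members and -15 bp for all genes. With only hotspots above the median score of their list, 22 members had a promoter hotspot in both strains (44.9%, against 51.2% of all genes). A further 2 had one in G170D alone (4.08%, against 6.18%), 5 in WT alone (10.2%, against 11.5%) and 20 in neither (40.8%, against 31.1%). In that setting 7 promoters were lower, or 14.3% against 17.6% of all genes. With lists of equal length, 4 were in WT alone (8.16%, against 7.33%) and 9 in neither (18.4%, against 16.6%). A call from 200 bp gave 1 higher (2.04%, against 5.48%) and 7 lower (14.3%, against 9.63%). For coding bodies, a call from 10 points gave 19 lower (38.8%, against 29.0% of all genes). A call from 40 points gave 1 higher (2.04%, against 5.21%) and 2 lower (4.08%, against 5.03%). Leaving out the first 500 bp left 4 of 39 genes lower, or 10.3% against 13.1% of all genes. The median was then -2.85 points for the members and -0.570 points for all genes. These settings changed the hotspots, the window or the limit, and why the values moved was not tested. ORC5 changed sign with only hotspots above the median score (75 bp in place of -149 bp). Of 19 promoter calls on single members, 17 were lost in at least 1 of 6 alternatives that changed list or window (ORC5 in 4, RFC5 in 3), and only those of TAH11 and RFC1 held in all. Of 11 body calls, 4 were lost in at least 1 (MCM5, ORC6, PSF1 and RNR4). Read depth is unknown, so a missing hotspot shows only that none was called.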
